A study of Rattus norvegicus with 109 samples.

Results

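Actb and EiF4e are the housekeeping transcripts on a panel of 19 genes that was measured by quantitative PCR in the nucleus of the solitary tract (NTS) of rats. This brainstem nucleus is where signals from the arterial baroreceptors arrive. Both rows were taken by their gene name from the normalised and the raw table, which gives 2 of 19 genes, each with a value in all 59 SHR and all 50 WKY sections. Each section was cut from the NTS by laser capture, and its position was checked by the submitters with a nuclear and a neuronal stain, per the labels. The rats were spontaneously hypertensive rats (SHR), a strain whose blood pressure rises with age, and Wistar Kyoto rats (WKY), its normotensive comparison strain, described in the series' design as age-matched. Each strain had 3 groups. "Cocktail" rats were injected with 25 uL of antisense inhibitors against miR-376a and miR-135a in equal parts, built from locked nucleic acid and dissolved at 10 uM in artificial cerebrospinal fluid. "Scrambled" was a locked nucleic acid oligonucleotide made to match no known microRNA or mRNA, and "Sham" was surgery with a cannula and an empty needle. In SHR, 5 Cocktail rats gave 17 sections, 2 Scrambled rats gave 15 and 1 Sham rat gave 27. In WKY, 4 Cocktail rats gave 27 sections, 5 Scrambled rats gave 15 and 3 Sham rats gave 8. The number of rat 4614 occurs in WKY Cocktail and again in WKY Scrambled, so that 19 animal numbers make 20 sets of sections.

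Actb encodes beta-actin, a building block of the cytoskeleton in every cell type. EiF4e, written Eif4e in RefSeq, encodes the factor that binds the cap of mRNAs and brings them to the ribosome. Both are transcribed in most cells and are often used as reference transcripts in quantitative PCR, where a section that holds more RNA crosses the detection threshold after fewer cycles. The tables list Actb by the transcript NM_031144 and EiF4e by NM_053974.2. RefSeq (assembly GRCr8) annotates 10 pseudogenes named Actb-ps and 10 named Eif4e-ps, and the labels describe the primers as intron-spanning. Whether pseudogene copies in residual genomic DNA contributed to either signal was not tested.

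The microRNAs that the Cocktail inhibitors bind are shown because they define the treated groups. The labels do not say which arm of each hairpin was the target, so both mature arms are given from RefSeq (GRCr8), 5′ to 3′, with the seed (bases 2 to 8), which pairs with target mRNAs, in capitals. The 4 seeds differ from each other.
rno-miR-135a-5p: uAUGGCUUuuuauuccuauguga
rno-miR-135a-3p: uGUAGGGAuggaagccaugaaa
rno-miR-376a-5p: gGUAGAUUcuccuucuaugag
rno-miR-376a-3p: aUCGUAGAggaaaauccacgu
Both arms of miR-135a lie on the minus strand of chromosome 7, at chr7:28499221-28499243 for the 5p arm and chr7:28499183-28499204 for the 3p arm. Both arms of miR-376a lie on the plus strand of chromosome 6, at chr6:134559383-134559403 for the 5p arm and chr6:134559421-134559441 for the 3p arm.

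The following readouts are given for the pair. The raw cycle number (Ct) counts the PCR cycles to the threshold, and a lower Ct means more template. The normalised level is the authors' value on a log2 scale, the section's subtracted constant minus the Ct, and a higher level means more transcript relative to the other genes of the section. The Actb to EiF4e ratio is the EiF4e Ct minus the Actb Ct of a section, on a log2 scale, and does not depend on that constant. Its size also holds the efficiencies of both assays, so it was compared between groups only and not read as a ratio of molecules. A fold assumes that product doubles with each cycle. Sections were averaged per rat, and n counts rats.

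The tissue markers on the panel were detected in most sections. Th and Dbh, enzymes of catecholamine synthesis that mark noradrenergic neurons, had a value in 103 and 96 sections. Alox5ap and Il1b, expressed by microglia and macrophages, had a value in 103 and 65 sections. The median Ct of a section over the 19 genes lay between 10.8 and 23.1, and 160 of 2071 values were missing. A median above 18 was found in 9 of the 50 WKY sections and in 0 of the 59 SHR sections, in 7 of the 12 WKY sets, and values without these 9 sections are given beside the results they moved most. The constant subtracted by the authors equalled the median over the panel in 59 of 59 SHR sections but in 1 of 50 WKY sections, and it was the Actb Ct, the EiF4e Ct or their mean in 0 sections.

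Neither transcript passed the test between any strains or procedures on the normalised scale. Actb and EiF4e were each called in 0 of 9 comparisons by limma, with an adjusted p threshold of 0.05, and in 0 of 9 at an unadjusted p under 0.05. An exact permutation test of the rats also called 0 of 9 for each gene, with 0 at an unadjusted p under 0.05. Over all 19 genes and 9 comparisons, 15.2% of tests passed in the same fit. This does not show that the levels were alike, since the 95% confidence interval of the difference stayed within 2-fold in 1 of 9 comparisons for Actb and in 0 of 9 for EiF4e.

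**Figure D1:**
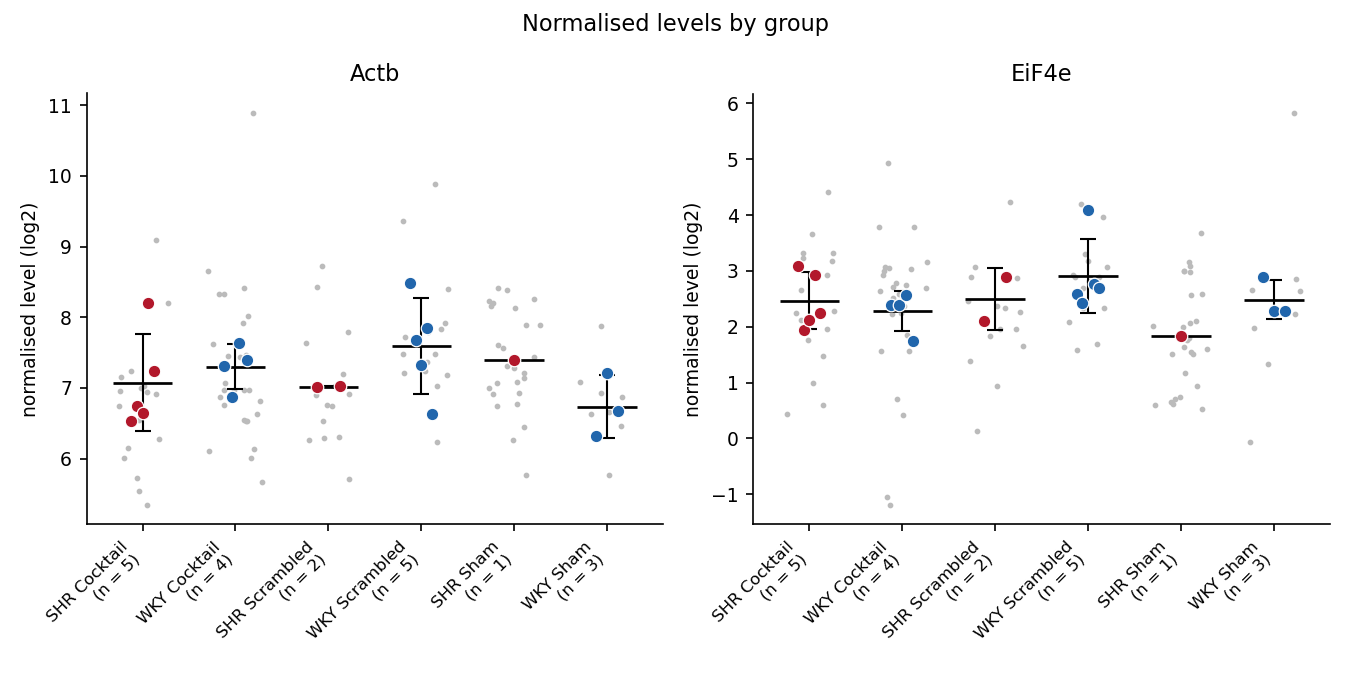
Normalised levels (log2) of Actb (left) and EiF4e (right) in the 6 groups. Large points are rats (red SHR, blue WKY), small grey points are sections, horizontal lines are means of rats and error bars are 1 SD over rats (none for SHR Sham, 1 rat). Group means lay between 6.73 and 7.59 for Actb and between 1.84 and 2.91 for EiF4e, and the pooled SD between sections of a rat (0.88 and 1.15) exceeded that between rats of a group (0.56 and 0.52), although not in every rat.

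In SHR, the question was whether the housekeeping transcripts differed after inhibition of the microRNAs. Normalised Actb was 6.53 in rat 1694, 6.75 in rat 1696, 6.65 in rat 4595, 8.20 in rat 4598 and 7.23 in rat 4602 after Cocktail, against 7.01 in rat 4600 and 7.02 in rat 4604 after Scrambled and 7.39 in the Sham rat 4596. Both Scrambled rats lay inside the Cocktail range, whose highest rat, 4598, rests on 1 section. The Cocktail rats averaged 7.07 ± 0.69 (SD, n = 5) and the Scrambled rats 7.02 ± 0.01 (SD, n = 2), a difference of 0.05 on the log2 scale with a standard error of 0.53 and a 95% interval of -1.07 to 1.17 (limma, adjusted p = 0.956, 10.5% of the 19 genes called). Against both SHR control groups, with Scrambled and Sham weighted equally, Actb differed by -0.13 (95% interval -1.15 to 0.88, limma, adjusted p = 0.936, 0% of genes called).

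Normalised EiF4e was 3.09 in rat 1694, 1.95 in rat 1696, 2.13 in rat 4595, 2.92 in rat 4598 and 2.24 in rat 4602 after Cocktail, against 2.11 and 2.88 in rats 4600 and 4604 after Scrambled and 1.84 in the Sham rat. The Cocktail rats again spanned both Scrambled rats. The Cocktail rats averaged 2.47 ± 0.51 (SD, n = 5) and the Scrambled rats 2.49 ± 0.55 (SD, n = 2), a difference of -0.03 with a standard error of 0.51 and a 95% interval of -1.09 to 1.04 (limma, adjusted p = 0.956). Against both control groups the difference was 0.30 (95% interval -0.66 to 1.26, limma, adjusted p = 0.793). The sign of the smallest of these differences depended on the fit: with sections as observations and the rat as a random block, SHR Cocktail against Scrambled was -0.20 for Actb and 0.21 for EiF4e.

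In WKY, Actb was 7.31 in rat 1701, 6.87 in rat 4607, 7.63 in rat 4612 and 7.39 in rat 4614 after Cocktail. It was 8.48 in rat 1700, 7.68 in rat 4610, 7.33 in rat 4614, 7.85 in rat 4615 and 6.63 in rat 4618 after Scrambled, and 6.32 in rat 4611, 7.21 in rat 4613 and 6.68 in rat 4617 after Sham. All 3 groups overlapped, with the Scrambled rats at both ends of the Cocktail range. The means were 7.30 ± 0.32 (SD, n = 4) after Cocktail, 7.59 ± 0.68 (SD, n = 5) after Scrambled and 6.73 ± 0.45 (SD, n = 3) after Sham. Actb differed by -0.29 between Cocktail and Scrambled (95% interval -1.19 to 0.61, limma, adjusted p = 0.861, 0% of genes called). Between Cocktail and Sham it differed by 0.57 (95% interval -0.46 to 1.59, limma, adjusted p = 0.704, 0% of genes called). Scrambled against Sham gave the widest Actb difference of the 9 comparisons, 0.86 or 1.81-fold, with a standard error of 0.46 and a 95% interval of -0.12 to 1.84 (limma, adjusted p = 0.278, 0% of genes called). Of the 5 Scrambled rats, 4 lay above the highest Sham rat, and the exact permutation p was 0.125 before adjustment. Centring on the median Ct of the other 17 genes gave -0.52 for Cocktail against Scrambled. Cocktail against Sham was then 0.17 and Scrambled against Sham 0.69.

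WKY EiF4e was 2.39 in rat 1701, 2.39 in rat 4607, 2.56 in rat 4612 and 1.75 in rat 4614 after Cocktail. It was 2.60 in rat 1700, 2.42 in rat 4610, 4.08 in rat 4614, 2.77 in rat 4615 and 2.69 in rat 4618 after Scrambled, and 2.89 in rat 4611, 2.28 in rat 4613 and 2.28 in rat 4617 after Sham. The Cocktail rats were low and the Scrambled rats high, with an overlap between rat 4612 at 2.56 after Cocktail and rat 4610 at 2.42 after Scrambled. The means were 2.28 ± 0.36 (SD, n = 4) after Cocktail, 2.91 ± 0.67 (SD, n = 5) after Scrambled and 2.48 ± 0.35 (SD, n = 3) after Sham. Cocktail against Scrambled gave the widest EiF4e difference, -0.64, with a standard error of 0.41 and a 95% interval of -1.49 to 0.21 (limma, adjusted p = 0.631). Its exact permutation p was 0.0635 before adjustment and 0.754 after adjustment over the 19 genes. The animal number 4614 supplied both the lowest Cocktail value, 1.75 over 5 sections, and the highest Scrambled value, 4.08 over 2 sections. Without both of its sets the difference was -0.17, without its Scrambled set -0.35, and without the 9 latest sections -0.40. EiF4e differed by -0.21 between Cocktail and Sham (95% interval -1.18 to 0.76, limma, adjusted p = 0.874) and by 0.43 between Scrambled and Sham (95% interval -0.50 to 1.36, limma, adjusted p = 0.619). Centring on the median Ct of the other 17 genes gave -0.87 for Cocktail against Scrambled. Cocktail against Sham was then -0.60 and Scrambled against Sham 0.26.

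Between the strains, the share of genes called was high and neither housekeeping transcript was among them. Under Cocktail, 36.8% of the 19 genes passed. Actb differed by -0.23 (95% interval -1.13 to 0.67, limma, adjusted p = 0.760) and EiF4e by 0.19 (95% interval -0.66 to 1.04, limma, adjusted p = 0.764), SHR minus WKY. Neither direction held without the 9 sections of a median Ct above 18, where Actb differed by 0.027 and EiF4e by -0.15. Under Scrambled, 42.1% of genes passed, while Actb differed by -0.57 (95% interval -1.70 to 0.55, limma, adjusted p = 0.359) and EiF4e by -0.42 (95% interval -1.48 to 0.64, limma, adjusted p = 0.418). Centred on the median Ct of the other 17 genes, these differences were -0.85 and -0.70. Over the controls, 47.4% of genes passed.

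In that comparison Actb averaged 7.20 in SHR and 7.16 in WKY, a difference of 0.04 with a 95% interval of -0.92 to 0.99 (limma, adjusted p = 0.979), the one interval that stayed within 2-fold. Centred instead on the median Ct of the other 17 genes, the same Actb difference was -0.25, so its direction hangs on the subtracted constant. EiF4e averaged 2.17 in SHR controls and 2.70 in WKY controls, a difference of -0.53 with a 95% interval of -1.44 to 0.37 (limma, adjusted p = 0.341). Centred on the median of the other 17 genes it was -0.82 (limma, adjusted p = 0.0702). The difference between the strains in Cocktail against Scrambled was 0.35 for Actb (95% interval -1.09 to 1.78, limma, adjusted p = 0.709) and 0.61 for EiF4e (95% interval -0.75 to 1.97, limma, adjusted p = 0.676), with 0% of genes called.

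**Figure D2:**
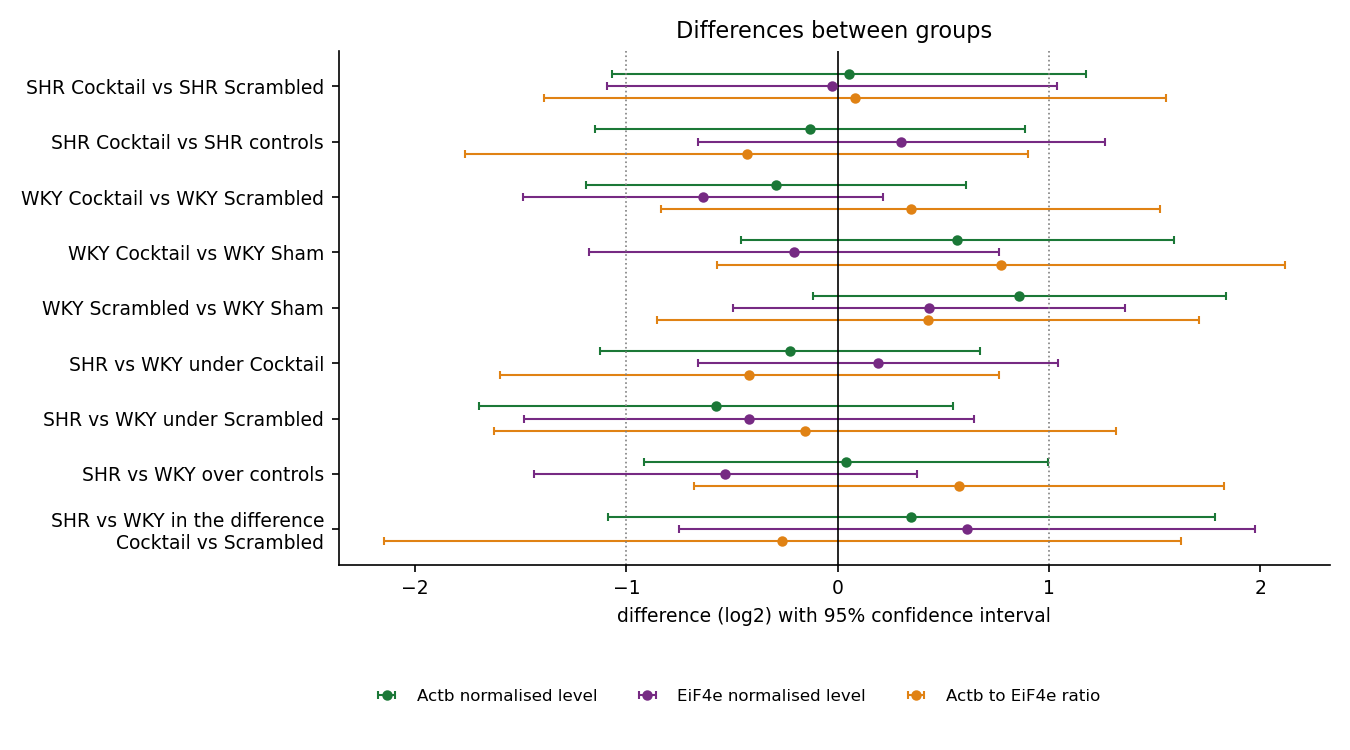
Differences between groups (log2, first group minus second) with 95% confidence intervals from limma for normalised Actb, normalised EiF4e and the Actb to EiF4e ratio in 9 comparisons. The dotted lines mark a 2-fold difference in either direction. All 27 intervals cross 0, and 1 of them, Actb for SHR against WKY over the controls, stays between the dotted lines.

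By group mean, normalised Actb ran from WKY Scrambled (7.59) through SHR Sham (7.39), WKY Cocktail (7.30), SHR Cocktail (7.07) and SHR Scrambled (7.02) to WKY Sham (6.73). The widest gap between neighbours in this order was 0.28, against a pooled SD of 0.56 between rats of a group. Normalised EiF4e ran from WKY Scrambled (2.91) through SHR Scrambled (2.49), WKY Sham (2.48), SHR Cocktail (2.47) and WKY Cocktail (2.28) to SHR Sham (1.84). Its widest gap was 0.44, against a pooled SD of 0.52. In both orders 0 of the 5 gaps exceeded the spread between rats of a group. The whole span from the highest to the lowest group mean, 0.86 for Actb and 1.08 for EiF4e, did exceed it. The gaps therefore describe the order of neighbouring groups and not whether the groups differ.

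The ratio of the pair did not pass between groups either. It was called in 0 of 9 comparisons by limma, with 0 at an unadjusted p under 0.05, and in 0 of 9 by exact permutation, also with 0 unadjusted. With EiF4e as the reference, 16.7% of the tests over 18 genes and 9 comparisons passed. In SHR the ratio was 3.43 in rat 1694, 4.80 in rat 1696, 4.52 in rat 4595, 5.28 in rat 4598 and 4.99 in rat 4602 after Cocktail, against 4.91 and 4.14 in rats 4600 and 4604 after Scrambled and 5.55 in the Sham rat. Both Scrambled rats again lay within the Cocktail range, and rat 1694 was the lowest of SHR. The Cocktail rats averaged 4.61 ± 0.71 (SD, n = 5) and the Scrambled rats 4.52 ± 0.54 (SD, n = 2), a difference of 0.08 with a 95% interval of -1.39 to 1.55 (limma, adjusted p = 0.923, 11.1% of genes called).

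In WKY the ratio was 4.91 in rat 1701, 4.48 in rat 4607, 5.07 in rat 4612 and 5.64 in rat 4614 after Cocktail. It was 5.89 in rat 1700, 5.25 in rat 4610, 3.25 in rat 4614, 5.08 in rat 4615 and 3.93 in rat 4618 after Scrambled, and 3.44 in rat 4611, 4.93 in rat 4613 and 4.40 in rat 4617 after Sham. Rat 4614 was highest after Cocktail and lowest after Scrambled, and the groups overlapped. The means were 5.02 ± 0.48 (SD, n = 4) after Cocktail, 4.68 ± 1.07 (SD, n = 5) after Scrambled and 4.25 ± 0.76 (SD, n = 3) after Sham. Cocktail exceeded Sham by 0.77, the widest of the 9 ratio differences, with a standard error of 0.64 and a 95% interval of -0.57 to 2.11 (limma, adjusted p = 0.625, 0% of genes called), and by 0.38 without the 9 latest sections. Cocktail against Scrambled differed by 0.35 with a 95% interval of -0.83 to 1.52 (limma, adjusted p = 0.778, 0% of genes called), by -0.22 without both sets of rat 4614 and by -0.040 without the 9 latest sections.

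Between strains, the ratio differed by -0.42 under Cocktail (95% interval -1.60 to 0.76, limma, adjusted p = 0.607, 33.3% of genes called) and by -0.16 under Scrambled (95% interval -1.63 to 1.32, limma, adjusted p = 0.876, 50% of genes called). Over the controls it differed by 0.57 (95% interval -0.68 to 1.83, limma, adjusted p = 0.421, 55.6% of genes called). Without the 9 WKY sections of a median Ct above 18, the difference was 0.18 under Cocktail and 0.05 under Scrambled, so neither direction held. The difference between the strains in Cocktail against Scrambled was -0.26 for the ratio (95% interval -2.15 to 1.62, limma, adjusted p = 0.960, 0% of genes called) and 0.12 without these sections.

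Across the panel, both housekeeping transcripts were among the least variable genes between rats. Over the 20 sets, the SD of the normalised level was 0.53 for EiF4e, the lowest of 19 genes, and 0.57 for Actb, the third lowest, against a median of 1.76 over the other 17 genes. Ptgr1, an enzyme that inactivates leukotriene B4 and prostaglandins, lay between them at 0.55. Between rats of the same group the SD was 0.52 for EiF4e (rank 1 of 19) and 0.56 for Actb (rank 3), against a median of 1.10 over the other 17. The group means of Actb spanned 0.86 and those of EiF4e 1.08, ranks 2 and 3, against a median of 4.04. These ranks describe this panel, which holds mostly regulated genes, and carry no test.

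Between sections of the same rat the 2 transcripts stood apart. Actb had the lowest SD of the 19 genes, 0.88, while EiF4e had 1.15 and rank 6, against a median of 1.46 over the other 17. In the SHR Sham rat 4596, with 27 sections, normalised Actb had a lowest value of 5.77, a median of 7.31 and a highest value of 8.42. EiF4e in the same 27 sections had a lowest value of 0.53, a median of 1.77 and a highest value of 3.69. In a mixed model with the group as fixed and the rat as random effect, the SD between rats was estimated at 0.10 for Actb and 0 for EiF4e, against 0.88 and 1.11 within rats. An estimate of 0 is not particular to EiF4e, since other genes such as Ptgr1, Ptgs1 and Alox5ap had it too. For the ratio the SD was 0 between rats and 1.49 within rats. The sections of a rat therefore carried nearly all of the spread in this model, and a rat with 1 section, such as 4598, 4602 or 4604, has no estimate of it. The SD between rats of a group, 0.56 for Actb and 0.52 for EiF4e, is that of rat means and also holds spread between sections.

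**Figure D3:**
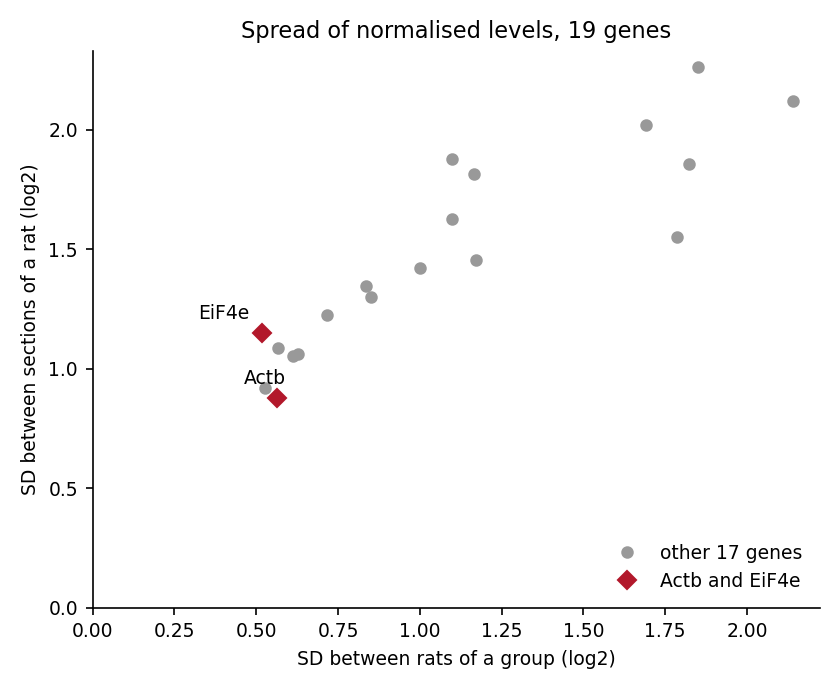
SD of the normalised level (log2) between rats of a group (horizontal axis) and between sections of a rat (vertical axis) for the 19 genes of the panel. Actb (0.56 between rats, 0.88 between sections) and EiF4e (0.52 and 1.15) sit at the low end of both axes, with Actb lowest of all genes on the vertical axis.

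Ptgr1 was the gene whose mean Ct per set stayed closest to that of Actb and to that of EiF4e. The SD of the Ct difference over the 20 sets was lowest between Actb and Ptgr1, at 0.52, followed by EiF4e at 0.75 and Agtrap, which encodes a protein that binds the angiotensin II receptor, at 0.78. For EiF4e it was lowest with Ptgr1, at 0.61, followed by Actb at 0.75 and Ltb4r, a leukotriene B4 receptor, at 0.76. Each Ct was averaged per set over the sections with a value before the difference was taken. Ptgr1 lacked a value in 9 sections, Agtrap in 4 and Ltb4r in 1, while Actb and EiF4e had a value in every section. Differences to Ptgr1, Agtrap and Ltb4r therefore do not rest on the same sections throughout. The average SD given next shares this limit. The average SD of a gene's Ct difference to the other genes, a common measure of how well a transcript serves as reference, was 1.60 for Ptgr1, 1.61 for EiF4e and 1.62 for Actb, the 3 lowest of the 17 genes with a value in all 20 sets. Over the 20 sets the normalised levels of Actb and EiF4e themselves had a Pearson correlation of 0.07, given as a description, since both levels share the constant subtracted in each section.

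Raw Ct was read as the measure of RNA input per section. A section with fewer captured cells and a section with less RNA per cell cannot be told apart from it. Actb had the lowest Ct of all 19 genes in every one of the 59 SHR and 50 WKY sections, from 4.52 to 14.56, while EiF4e ranked between 2 and 12 with a median rank of 4, from 8.42 to 22.88. By group the Actb Ct averaged 6.67 ± 0.94 in SHR Cocktail (SD, n = 5), 8.32 ± 0.72 in SHR Scrambled (SD, n = 2) and 7.76 in the SHR Sham rat. In WKY it averaged 7.99 ± 0.96 after Cocktail (SD, n = 4), 7.53 ± 1.20 after Scrambled (SD, n = 5) and 7.05 ± 1.66 after Sham (SD, n = 3). With all sections the Actb Ct was earliest in SHR Cocktail and latest in SHR Scrambled. The EiF4e Ct averaged 11.27 ± 1.42 in SHR Cocktail, 12.85 ± 0.17 in SHR Scrambled and 13.31 in the SHR Sham rat. In WKY it averaged 13.02 ± 0.75 after Cocktail, 12.21 ± 1.72 after Scrambled and 11.30 ± 1.06 after Sham, with the same n. The group means spanned 1.66 cycles for Actb and 2.04 cycles for EiF4e, against a pooled SD between rats of 1.14 and 1.31. In both orders 0 of the 5 gaps between neighbouring group means exceeded the spread between rats, and SHR Cocktail preceded WKY Sham by 0.39 cycles for Actb and 0.03 cycles for EiF4e. Without the 9 latest sections the order was another, with WKY Sham earliest for both, at 6.47 for Actb and 10.52 for EiF4e, and WKY Scrambled next, at 6.61 and 11.08.

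Input did not pass between groups for either transcript. Each Ct was called in 0 of 9 comparisons by limma, with 0 of 9 at an unadjusted p under 0.05, against 7.6% of all tests on raw Ct. On this scale 26.3% of the 19 genes passed between strains under Scrambled, where Actb differed by 0.80 cycles and EiF4e by 0.64 cycles (limma, adjusted p = 0.650 and 0.731). Over the controls 31.6% passed, where Actb differed by 0.75 cycles and EiF4e by 1.32 cycles (limma, adjusted p = 0.637 and 0.434), SHR minus WKY. Without the 9 latest sections these differences were larger, 1.71 and 1.77 cycles under Scrambled and 1.503 and 2.28 cycles over the controls, for Actb and EiF4e in that order (limma, smallest adjusted p = 0.0676, for EiF4e over the controls). By exact permutation 0 of 9 passed after adjustment for each transcript, with 0 unadjusted for Actb and 2 for EiF4e. The share of the 19 genes at such an unadjusted p was not counted, so the 2 are not read as particular to EiF4e. The EiF4e Ct was 13.93, 12.45, 13.34 and 12.36 in the WKY Cocktail rats 1701, 4607, 4612 and 4614, against 11.73, 10.10 and 12.09 in the WKY Sham rats 4611, 4613 and 4617. The groups did not overlap, with every Cocktail rat later. How many other genes were separated in this way was not counted. Each of the 4 Cocktail rats held at least 1 of the 9 latest sections, as did 1 of the 3 Sham rats. The difference was 1.71 cycles with a 95% interval of -0.64 to 4.07 (limma, adjusted p = 0.596, 0% of genes called on raw Ct), and the exact permutation p of 0.0286, the smallest that 4 against 3 rats allow, was 0.271 after adjustment. Without the 9 latest sections the difference was 0.77 cycles and the groups overlapped, from 9.99 to 12.76 in Cocktail rats and from 9.73 to 11.73 in Sham rats.

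The EiF4e Ct of the SHR Cocktail rats was 8.80, 11.85, 12.46, 11.68 and 11.56 in rats 1694, 1696, 4595, 4598 and 4602. Their mean differed from that of the WKY Cocktail rats by -1.75 cycles, so it was earlier, with rat 4595 overlapping rats 4607 and 4614 (95% interval -3.82 to 0.32, limma, adjusted p = 0.301, 5.26% of genes called). The exact permutation p was 0.0317 before and 0.121 after adjustment. This difference was -0.018 cycles without the 9 latest sections, and -0.73 cycles with the median over the sections of each rat. For the Actb Ct it was -1.33 cycles, and -0.19 without these sections. Against SHR Scrambled, with 12.73 in rat 4600 and 12.97 in rat 4604, all 5 Cocktail rats were earlier, with a mean difference of -1.58 cycles (95% interval -4.16 to 1.00, limma, adjusted p = 0.323, 0% of genes called). Whether genes outside the pair were separated in the same way was not counted. The Actb Ct of the SHR Cocktail rats was 5.37, 7.05, 7.94, 6.40 and 6.56 in the same order, against 7.82 and 8.83 in the SHR Scrambled rats, so that rat 4595 overlapped with rat 4600. That difference was -1.66 cycles with a 95% interval of -4.12 to 0.80 (limma, adjusted p = 0.323). The widest differences on this scale were between the strains in Cocktail against Scrambled, at -2.12 cycles for Actb and -2.39 cycles for EiF4e (limma, adjusted p = 0.368 for each, 0% of genes called).

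**Figure D4:**
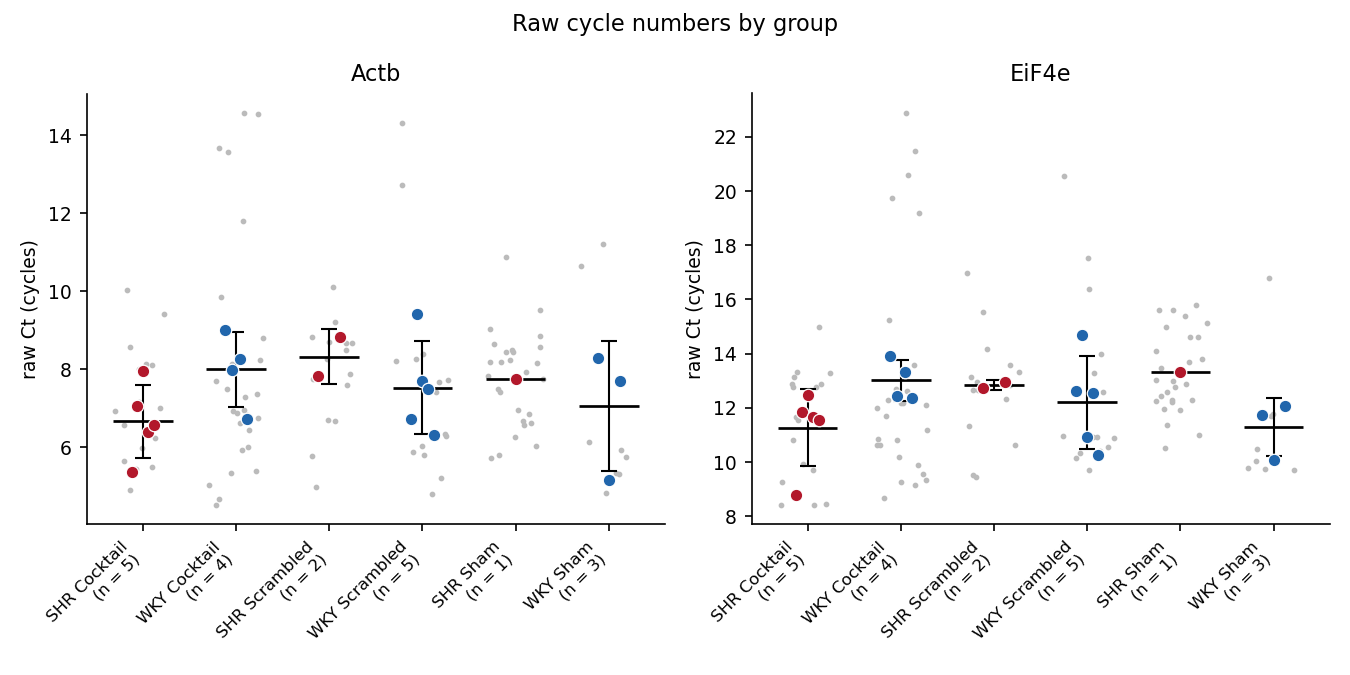
Raw Ct (cycles, lower is more template) of Actb (left) and EiF4e (right) in the 6 groups, with rats as large points (red SHR, blue WKY), sections as small grey points, means of rats as lines and 1 SD over rats as error bars. With all sections SHR Cocktail has the lowest group mean for both, 6.67 for Actb and 11.27 for EiF4e, ahead of WKY Sham by 0.39 and 0.03, and without the 9 latest sections WKY Sham is lowest (6.47 and 10.52). The latest sections, up to 14.56 and 22.88, are all from WKY.

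Over the sections, the Ct of Actb and EiF4e moved together. Pooled within rats, the Pearson correlation was 0.85 over all sections, 0.60 over the 59 SHR sections and 0.91 over the 50 WKY sections, with EiF4e moving 1.13 cycles per cycle of Actb. It was positive in 10 of the 10 sets with at least 4 sections, from 0.37 in rat 4595 to 0.99 in rat 4610. Without the 9 sections of a median Ct above 18 it was 0.57, with a slope of 0.66, so the late WKY sections carried much of it. Against the median Ct of the other 17 genes, Actb had a correlation of 0.90 and a slope of 0.75, and EiF4e one of 0.92 and a slope of 1.02. These points share a chip reaction and an extract per section and carry no test.

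The median ratio of the pair was highest in the bin of sections with the latest median Ct of the other 17 genes, but not in the bin with the latest Actb Ct. The Actb Ct is itself subtracted in the ratio, so the ratio and an order by Actb Ct are not independent. Why the 2 orders differ was not tested. The last bin by Actb Ct ran from 8.50 to 14.56, and its sections at 14.55 and 14.56 had ratios of 5.20 and 6.91. Over 4 bins ordered by Actb Ct, the median ratio was 4.71, 5.28, 4.79 and 4.83, early to late. Over 4 bins ordered by the median Ct of the other genes, the median ratio was 4.32, 4.99, 4.78 and 5.90. Pooled within rats it rose by 0.27 per cycle of the median Ct of the other 17 genes, with a correlation of 0.45, positive in 9 of the 10 sets with at least 4 sections and between -0.02 and 0.99 in them. By strain, the slope was 0.32 and the correlation 0.29 over the 59 SHR sections, and 0.26 and 0.56 over the 50 WKY sections. Without the 9 latest sections, all from WKY, the slope over the other 100 sections was 0.06 and the correlation 0.06. In these 9 sections the ratio had a lowest value of 4.83, a median of 6.91 and a highest value of 9.33, against a median of 4.77 and a range of 1.05 to 8.30 in the other 100 sections. The highest of all, 9.33, came from WKY Cocktail rat 4614, where Actb had a Ct of 9.84 and EiF4e one of 19.18, and the next, 9.20, from WKY Cocktail rat 4612, with 13.67 and 22.88. The normalised level of EiF4e had a median of 1.56 in these 9 sections, against 2.47 in the other 100, and that of Actb 7.71 against 7.03. At the other end, the lowest ratio, 1.05, came from WKY Sham rat 4611, whose 2 sections had nearly the same EiF4e Ct, 11.71 and 11.76, but an Actb Ct of 10.65 and 5.94. Which of the 2 transcripts departed from the RNA content of such a section was not tested.

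**Figure D5:**
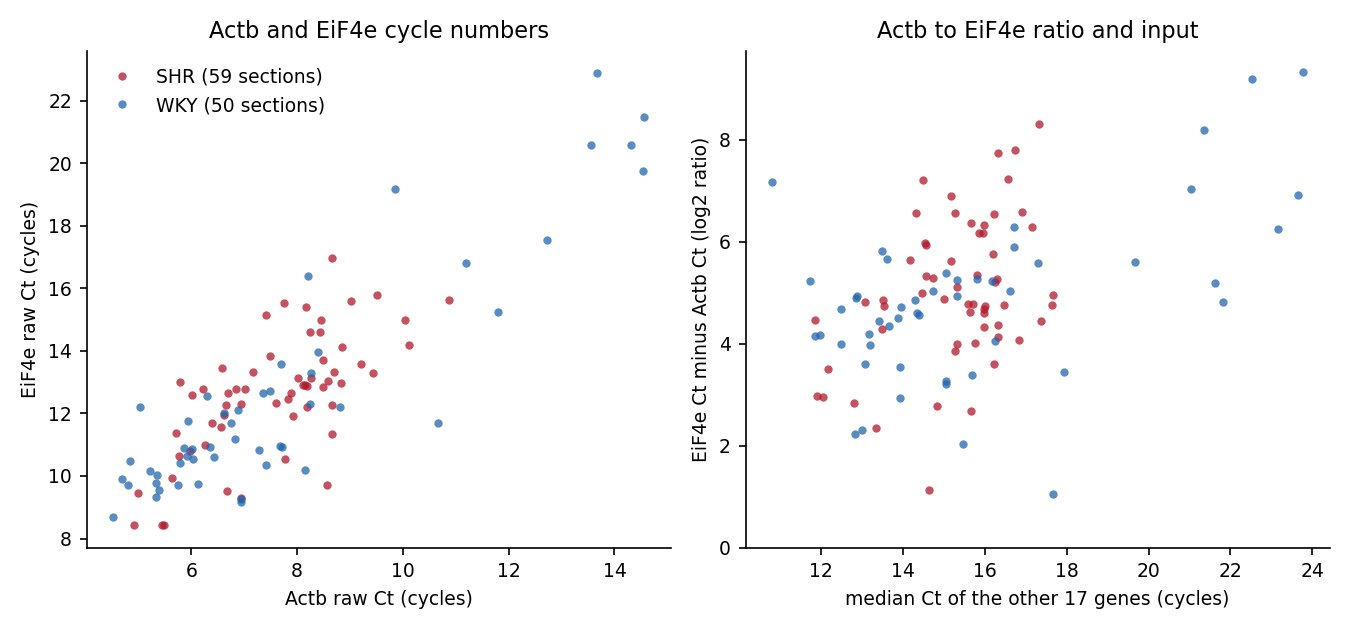
Left, raw Ct of Actb and EiF4e in each of the 59 SHR (red) and 50 WKY (blue) sections. Right, the Actb to EiF4e ratio (log2) of each section against the median Ct of the other 17 genes, where a later median is read as less RNA. The 9 WKY sections at the far right, with medians from 19.7 to 23.8, have ratios from 4.83 to 9.33.

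Missing values of other genes were more frequent in sections with a late Actb Ct. The sections were ordered by Actb Ct and divided into 4 bins of 27 or 28. In the earliest bin (Actb Ct 4.52 to 6.12), 9 of 532 values were missing, or 1.69%. The share was 4.68% in the next bin (6.22 to 7.42), 8.58% in the third (7.48 to 8.49) and 16.2% in the last (8.50 to 14.56). All genes had a value in 19 of 28 sections of the earliest bin and in 2 of 27 sections of the last. Pooled within rats, the number of missing values had a correlation of 0.71 with the Actb Ct and 0.69 with the EiF4e Ct. Actb, EiF4e and 2 other genes had a value in every section, so the raw Ct and the ratio of the pair are not touched by this loss. Their normalised levels can be, since the constant in all 59 SHR sections was the median over the genes with a value. How far the loss moved these levels was not tested.

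The last question was how far the calls on the other 17 genes depended on the authors' constant, and they were recomputed with the mean Ct of Actb and EiF4e as the reference. Calls with the deposited values were adjusted over the same 17 genes for this purpose. In SHR Cocktail against SHR Scrambled, 2 genes passed (11.8%), the same 2 as with the deposited values, Agtr1a (the angiotensin II type 1a receptor, higher after Cocktail) and Ptgs2 (the inducible cyclooxygenase, lower). Agtr1a had a value in 16 of 17 Cocktail sections but in 7 of 15 Scrambled sections. Ptgs2 had a value in 4 of the 5 Cocktail rats and in 1 of the 2 Scrambled rats. This count was 0 without any one of rats 1694, 1696, 4598, 4602 and 4600, and 5 without rat 4604, and without the 9 latest WKY sections Ptgs2 alone passed. In SHR against WKY under Cocktail, 7 genes passed (41.2%), all 7 among the 8 of the deposited values, and 4 passed without rat 4614. Under Scrambled, 9 passed (52.9%), 8 of them shared with the 8 of the deposited values, and 11 passed without the 9 latest WKY sections, with Il10, which encodes an anti-inflammatory cytokine, and Ltb4r added. Over the controls, 10 passed (58.8%), 9 of them shared with the 9 of the deposited values, with 5 passing without rat 4600 and 6 without rat 4617.

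The calls gained were few. Ptgs2 under Scrambled was 3.25 higher in SHR than in WKY (limma, adjusted p = 0.0386), against 2.60 with the deposited values (adjusted p = 0.0760), again with 1 SHR Scrambled rat. Agtrap over the controls was 1.12 higher in SHR (limma, adjusted p = 0.0312), against 0.86 with the deposited values (adjusted p = 0.131). In WKY Scrambled against Sham, where the deposited values gave 0 calls, 2 genes passed (11.8%). These were Ace, the enzyme that forms angiotensin II, which fell by 1.80 (limma, adjusted p = 0.0401, against a difference of -1.16 and an adjusted p of 0.311 with the deposited values), and Il1a, which encodes the cytokine interleukin 1 alpha and fell by 4.72 (limma, adjusted p = 0.0401, against -4.07 and 0.0703).

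With a single reference the calls differed between the 2 transcripts. With Actb alone, 0 of 17 genes passed in SHR Cocktail against Scrambled, where Agtr1a had a difference of 2.20 and Ptgs2 one of -3.88 (limma, adjusted p = 0.148 for each). The strain comparisons then gave 6 genes under Cocktail (35.3%), 7 under Scrambled (41.2%) and 7 over the controls (41.2%). Il10 was not called under Cocktail, with a difference of -2.24 against -2.22 with the deposited values, or over the controls (-2.20 against -2.16). Fos, an immediate-early factor of activated neurons, was not called over the controls (2.07 against 2.11), nor Dbh under Scrambled (-3.39 against -4.05). Dbh had a value in 7 of 15 SHR Scrambled sections and in 15 of 15 WKY Scrambled sections. The standard errors were larger with Actb alone, 0.93 against 0.75 for Il10 under Cocktail and 0.95 against 0.80 for Fos, while these differences changed little for Il10 and Fos. In WKY Scrambled against Sham, Actb alone gave 3 calls (17.6%), Ace, Il1a and Ptgs1, the constitutive cyclooxygenase, all lower after Scrambled. This is the comparison where normalised Actb itself was 0.86 higher. With EiF4e alone, the counts were 2 in SHR Cocktail against Scrambled (11.8%), 6 under Cocktail (35.3%), 9 under Scrambled (52.9%), 10 over the controls (58.8%) and 0 in WKY Scrambled against Sham. Agtrap, called under Cocktail with the deposited values, had an adjusted p of 0.114 with EiF4e alone (limma, difference 1.01).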

How the data were processed

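Transcripts of 19 genes were quantified on BioMark chips with EvaGreen over 30 cycles, per the labels' protocols. The raw table deposited by the authors holds Ct, treated as a score. The normalised table deposited by the authors has log2 values (minus ΔCt), as the values show. Software versions are not given in the sources used here. Each normalised section matched a raw section of its own rat, in 44 cases under another section name. The members, lists and tests were chosen with earlier results of these data known.

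Sections were averaged per rat and procedure (20 sets), without missing values. The set means of each gene were fitted with limma 3.58.1 (R 4.3.3) on the 6 groups, with 1 shared spread that groups of 1 or 2 rats borrow. Each set had equal weight, from 1 section (rats 4598, 4602 and 4604) to 27 sections (rat 4596). The confidence intervals therefore make no allowance for the number of sections of a rat. Contrasts were two-sided, and Benjamini-Hochberg adjustment ran over all genes of a fit, with a threshold of 0.05. Exact permutation tests exchanged rats between the groups compared, two-sided. Comparisons share control rats. Mixed models used lme4 1.1.37. The code was tested on simulated data. Other genes were named if their Ct difference to Actb or EiF4e was among the 3 least variable, or if their call changed with the reference. The series' design speaks of 4 to 5 rats per group, which the animal numbers do not give for SHR Scrambled (2), SHR Sham (1) and WKY Sham (3). A single gene of the panel entered the fits without its values being reported here. Primer sequences were not used here.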

Additional observations from a re-analysis of the deposited data

Results flagged for a closer look

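Each group of 4 or 5 rats was searched for a rat far from the others, in 15 combinations of group and quantity, and chance flags about 1 in 20 groups. The EiF4e raw Ct of rat 1694 was the lowest of SHR Cocktail, at 8.80, against 11.56 to 12.46 in the other 4 rats, over 4 sections. The normalised EiF4e level of rat 4614 was the highest of WKY Scrambled, at 4.08, against 2.42 to 2.77 in the other 4 rats, over 2 sections, and the same animal number had 1.75 over 5 sections in WKY Cocktail. The cause of either value was not tested.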

How the results depend on the processing

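Over 45 results (5 quantities by 9 comparisons), 279 alternative fits were run. Of these, 88 repeat the difference itself (within 0.001), nearly all because they change only the test, the genes fitted, rats and sections outside the comparison or a constant that SHR sections already share. Of the other 191, 170 kept the sign and 21 changed it. Leaving out 1 rat kept the sign in 381 fits and changed it in 19. None of these fits passed. The smallest adjusted p was 0.0676, for the EiF4e Ct of SHR against WKY over controls without sections of a median Ct above 18, and 0.185 with a rat left out. The sign changes concern differences inside the spread between rats, and their cause was not tested. With the section median per rat, Actb was 0.0080 in SHR Cocktail against controls and -0.018 in SHR against WKY over controls, EiF4e was -0.12 between strains under Cocktail, the strain difference of the ratio response was 0.11, and WKY Cocktail against Scrambled was -0.74 for the Actb Ct and -0.082 for the EiF4e Ct. With sections and a random rat block, SHR Cocktail against Scrambled was -0.20 for Actb, 0.21 for EiF4e and -0.41 for the ratio, and Actb over controls was -0.038 between strains. Centred on the median of 19 genes, Actb over controls was -0.24, and on that of 17 genes -0.25, where EiF4e in SHR Cocktail against Scrambled was 0.059. Without sections above 18, strains under Cocktail differed by 0.027 for Actb, -0.15 for EiF4e and 0.18 for the ratio. The ratio then differed by 0.055 between strains under Scrambled and by -0.040 in WKY Cocktail against Scrambled, with a response difference of 0.12. Without both sets of rat 4614 the last 2 were -0.22 and 0.30.

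Leaving out 1 rat, SHR Cocktail against Scrambled ranged from -0.23 to 0.19 for Actb, from -0.42 to 0.36 for EiF4e and from -0.30 to 0.47 for the ratio. Actb ranged from -0.41 to 0.0047 in SHR Cocktail against controls and from -0.081 to 0.16 between strains over controls. The ratio ranged from -0.013 to 0.65 in WKY Cocktail against Scrambled, from -0.54 to 0.23 between strains under Scrambled and from -0.65 to 0.12 for the response difference. The Actb Ct ranged from -0.0010 to 1.56 in WKY Cocktail against Sham and from -0.46 to 1.10 in WKY Scrambled against Sham. With Actb and EiF4e as reference, calls in SHR Cocktail against Scrambled numbered 2, 1 without sections above 18, 0 with Actb alone and 0 to 5 with a rat left out. Strain calls ranged from 4 to 7 under Cocktail and from 5 to 10 over controls. No paired analysis was possible because the rats of different groups share no number other than 4614, and section numbers only name sections. The few rats of SHR Scrambled and SHR Sham and late WKY sections limit precision.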
